A study of Populus tremula x Populus tremuloides with 22 samples.

Results

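LBD11-OE-14 and LBD11-OE-1, 2 transgenic lines that overexpress the same gene, were compared across all genes counted in hybrid aspen stems. Their 6 libraries, 3 of each line, were chosen by the library titles out of 22 libraries in all. Poly(A) RNA was sequenced from stem internodes of Populus tremula x Populus tremuloides grown for 3 weeks in a greenhouse. Both lines overexpressed the Arabidopsis thaliana gene LBD11, which the series describes as driven in xylem; no promoter is named in the labels. The libraries titled line 14 carry the number 3 in their genotype label, so the line number is in doubt, and they are called LBD11-OE-14 throughout. The remaining libraries came from a further LBD11 line (LBD11-OE-2, 3 libraries), from 3 lines overexpressing Arabidopsis LBD4 (8 libraries) and from wild type (WT, 5 libraries). Each line stands for 1 transgenic line, and nothing in the labels says that its replicates were separate trees, so the p-values measure the spread between libraries, which may be technical. The Arabidopsis transgene is not among the counted aspen gene models, so its level in either line was not analysed here.

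LBD proteins are plant transcription factors that act at organ boundaries and in vascular tissue, where some family members take part in secondary growth from the cambium. Wood is made when cambium derivatives become xylem: primary walls are laid down during growth, and secondary walls of cellulose, xylan and lignin follow. NAC and MYB transcription factors switch on the enzymes of secondary wall synthesis. Transformants of a construct commonly differ in the position and copy number of the insertion, and the labels give neither.

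The files hold 34699 gene models, of which 26271 had enough reads to be tested. Total counts ran between 31721008 and 33677867 in LBD11-OE-14 and between 29883157 and 32539433 in LBD11-OE-1, within the span of 23437445 to 41969957 over all libraries. The median gene had an SD of 0.13 between the LBD11-OE-14 libraries, 0.14 between the LBD11-OE-1 libraries and 0.19 between the WT libraries, on the scale of log2 CPM, the read count scaled to library size. The 22 libraries fall into 2 sets by 3 genes on chromosome 7, whose summed level was 332 to 2372 CPM in 15 libraries and 20.6 to 83.1 CPM in the other 7. LBD11-OE-14 and LBD11-OE-1 both lie in the set of 15, so a comparison between them is made within it. LBD11-OE-2, LBD4-OE-11 and WT replicate 3 make up the set of 7. These sets were defined from the data, and the labels say nothing of them. Tissue identity could be checked only through lists of identifiers written down as wood-forming genes; the 5 listed secondary wall cellulose synthases averaged between 218 and 1587 CPM in WT. No list for green tissue, phloem or epidermis could be matched, so the part of other tissues in any difference was not tested. In bulk RNA, fewer cells of a type and less RNA per cell cannot be told apart.

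LBD11-OE-14 had more genes above LBD11-OE-1 than below it. Of the 26271 genes tested, 357 were higher in LBD11-OE-14 (1.36%) and 88 were lower (0.335%), 445 in all (1.69%), by edgeR's quasi-likelihood test at a Benjamini-Hochberg adjusted p below 0.05. The differences were mostly small. The median rise was 0.66 and the median fall was -0.76 on the log2 scale, and 138 of the rises and 29 of the falls were under 1.5-fold. At least 2-fold were 90 rises and 37 falls. The median over all tested genes was -0.0037. In each of the 445 genes, the 3 libraries of one line did not overlap the 3 of the other; among all tested genes 20.3% had this separation (11.6% with LBD11-OE-14 higher and 8.7% with it lower). At an unadjusted p below 0.05 there were 3224 genes. The counts moved with single libraries: 123 higher and 34 lower without LBD11-OE-14 replicate 2, 166 and 58 without LBD11-OE-1 replicate 1, 193 and 44 without LBD11-OE-1 replicate 3, and 237 and 54 without LBD11-OE-14 replicate 3. Without both WT replicate 3 and LBD4-OE-11 replicate 1, which enter only through the filter, scaling and shared estimate of spread, 616 were higher and 209 lower, and without WT replicate 3 alone 520 and 152.

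**Figure D1:**
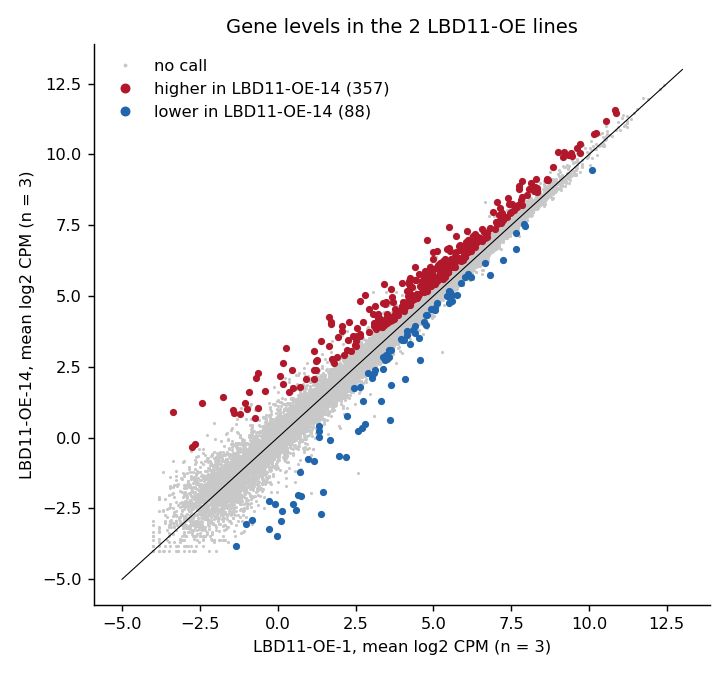
Mean log2 CPM of each tested gene over the 3 libraries of LBD11-OE-1 (x axis) and of LBD11-OE-14 (y axis), with the genes that passed the test in colour and a diagonal at equal levels. The 357 genes above the diagonal outnumber the 88 below it, and most lie close to it.

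Both lines also differed from WT, in similar numbers of higher and lower genes. Against the 5 WT libraries, 7010 genes differed in LBD11-OE-14 (26.7%; 3678 higher and 3332 lower) and 5646 in LBD11-OE-1 (21.5%; 2838 higher and 2808 lower). The median difference from WT over these genes was 0.53 in LBD11-OE-14 and 0.52 in LBD11-OE-1, in log2 size, and 1575 and 1192 of them reached 2-fold. Both comparisons share the WT libraries, and whether their counts differ was not tested apart from the direct comparison of the lines. Without LBD11-OE-1 replicate 1, the count for LBD11-OE-1 was 3222.

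No gene names come with the files, and so the genes with the largest differences are given by identifier and position as deposited, on a genome build that the files do not state. The 2 largest rises and 2 largest falls among genes of at least 5 mean CPM are named. Potri.016G101100 (chromosome 16, 10194549 to 10197776, minus strand) had 7.83, 10.9 and 8.26 CPM in LBD11-OE-14, against 0.540, 1.66 and 1.67 CPM in LBD11-OE-1. LBD11-OE-2 had 3.76, 2.60 and 0.743 CPM, the LBD4 lines 0 to 0.255 CPM (median 0.0838) and WT 0.0565 to 0.379 CPM (median 0.178). Every LBD11 library was therefore above every WT library, and LBD11-OE-14 was above the other LBD11 lines. Its log2 difference between LBD11-OE-14 and LBD11-OE-1 was 2.80 ± 0.50 (SE; edgeR adjusted p = 0.00291). Against WT the log2 difference was 5.52 ± 0.50 in LBD11-OE-14 and 2.72 ± 0.54 in LBD11-OE-1.

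Potri.019G064800 (chromosome 19, 10489390 to 10491122, plus strand) had 4.23, 9.58 and 5.79 CPM in LBD11-OE-14, against 0.699, 1.15 and 1.51 CPM in LBD11-OE-1. LBD11-OE-2 had 2.27, 5.88 and 0.743 CPM, overlapping both lines, and WT had 0.0684 to 0.142 CPM (median 0.0848). The log2 difference of LBD11-OE-14 from LBD11-OE-1 was 2.55 ± 0.54 (edgeR adjusted p = 0.0132). The call was lost without LBD11-OE-14 replicate 2 (adjusted p = 0.107), without LBD11-OE-1 replicate 1 (0.099) or replicate 2 (0.0592), and with the 9 LBD11 libraries alone (0.140).

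Potri.015G087500 (chromosome 15, 11117901 to 11120046, plus strand) had 1.52, 1.10 and 1.99 CPM in LBD11-OE-14, against 6.99, 14.6 and 17.3 CPM in LBD11-OE-1. LBD11-OE-2 had 6.87, 7.17 and 18.6 CPM, within the span of LBD11-OE-1 or just outside it. The LBD4 lines had 43.4 to 92.0 CPM (median 59.5) and WT 61.1 to 98.3 CPM (median 65.1). All LBD11 libraries were below all WT libraries, and those of LBD11-OE-14 were the lowest. The log2 difference between LBD11-OE-14 and LBD11-OE-1 was -3.07 ± 0.45 (edgeR adjusted p = 0.00143), and it was -5.55 ± 0.45 for LBD11-OE-14 and -2.48 ± 0.35 for LBD11-OE-1 against WT. The model overlaps its neighbour on the opposite strand by 5 bases, and that neighbour had a mean of 72.3 CPM in LBD11-OE-14 and 61.9 CPM in LBD11-OE-1; whether the counting used strand is not given in the sources used here.

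Potri.004G049000 (chromosome 4, 3947541 to 3949415, minus strand) had 1.31, 1.52 and 0.878 CPM in LBD11-OE-14, against 4.32, 7.48 and 8.50 CPM in LBD11-OE-1. LBD11-OE-2 had 4.68, 1.66 and 8.53 CPM and WT 20.8 to 36.5 CPM (median 24.4). As with the gene on chromosome 15, every library of the 3 LBD11 lines lay below every WT library. The log2 difference of LBD11-OE-14 from LBD11-OE-1 was -2.45 ± 0.46 (edgeR adjusted p = 0.00881). The call was lost without LBD11-OE-14 replicate 3 (adjusted p = 0.0531) and with the 9 LBD11 libraries alone (0.0678).

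**Figure D2:**
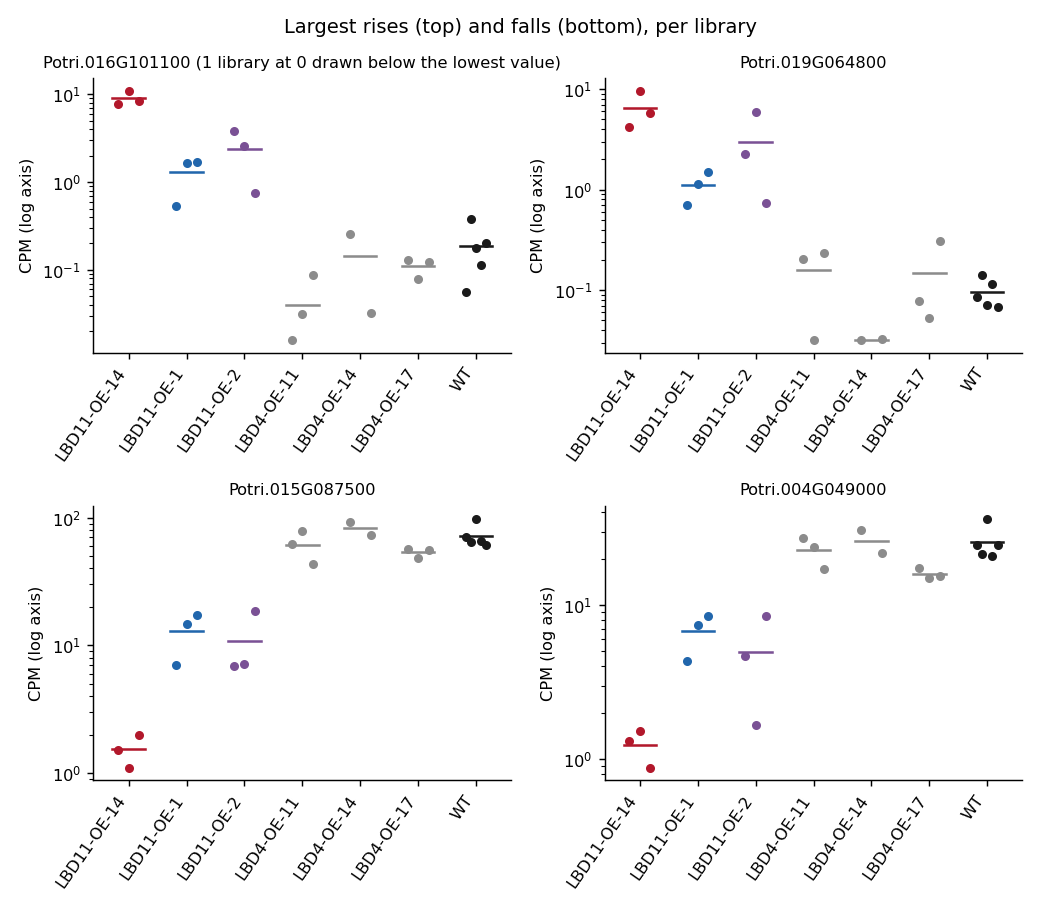
Level of the 4 named genes in every library, in CPM on log axes, by group; points are libraries and bars are group means, and a library at 0 is drawn below the lowest value. In the 2 genes that rose, LBD11-OE-14 is the highest group and WT is near the bottom, and in the 2 that fell the order is turned round.

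For most genes that differed between the lines, WT lay on the LBD11-OE-1 side. Of the 357 genes higher in LBD11-OE-14, the WT mean was at or below that of LBD11-OE-1 in 214, between the lines in 131 and above LBD11-OE-14 in 12. Of the 88 lower genes, the WT mean was at or above that of LBD11-OE-1 in 56, between the lines in 28 and below LBD11-OE-14 in 4. The median difference from WT was 0.80 in LBD11-OE-14 and 0.10 in LBD11-OE-1 over the 357, and -1.06 and -0.13 over the 88, on the log2 scale. The third line, LBD11-OE-2, had a mean between the other two in 331 of the 357 and in 77 of the 88, and it was nearer to LBD11-OE-1 in 252 and 64 of them. Genes chosen for a difference between 2 lines favour a position between them for any other group. The position of WT beyond LBD11-OE-1 was not tested. All of these counts describe the genes and are not a test.

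Among genes past 2-fold with at least 5 mean CPM in the higher line, 68 were higher and 13 lower in LBD11-OE-14. These genes were chosen by their levels in these 2 lines, so the order of the lines was set by the choice. The levels in LBD11-OE-2 and WT describe the genes and are not a test. The median level of the 68 was 30.04 CPM in LBD11-OE-14, 11.1 CPM in LBD11-OE-1, 15.6 CPM in LBD11-OE-2 and 6.22 CPM in WT, and 10 of them had a mean below 1 CPM in WT. The WT mean was below that of LBD11-OE-1 in 52 of the 68. The median level of the 13 was 3.74 CPM in LBD11-OE-14, 12.8 CPM in LBD11-OE-1, 10.9 CPM in LBD11-OE-2 and 26.3 CPM in WT. In 10 of the 13 the WT mean was above that of LBD11-OE-1.

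Gene sets called in the third line against WT gave a further view. LBD11-OE-2 and WT share no library with LBD11-OE-14 or LBD11-OE-1. The comparison of LBD11-OE-2 with WT still came from the same fit. Filter, scaling and each gene's estimate of spread were therefore shared with the line comparison. A gene with a low estimate of spread is more easily called in both. LBD11-OE-2 against WT called 2268 genes higher (8.63%) and 2027 lower (7.72%). Of the 2268, 184 were higher in LBD11-OE-14 than in LBD11-OE-1 (8.11%, against 1.36% of all genes) and 6 were lower. Their median log2 difference between the lines was 0.11, and 68.3% were above 0, against 49.3% of all genes. Of the 2027, 43 were lower in LBD11-OE-14 (2.12%, against 0.335% of all genes) and 15 were higher, with a median of -0.08 and 67.7% below 0. Among genes at least 2-fold from WT in LBD11-OE-2, 65 of 638 were higher (10.2%; median 0.27) and 25 of 327 were lower (7.65%; median -0.32). The 21976 genes not called in LBD11-OE-2 held 158 higher (0.719%) and 39 lower (0.177%). The 184 became 79 without LBD11-OE-14 replicate 2, 93 without LBD11-OE-1 replicate 1 and 113 without LBD11-OE-1 replicate 3. The 43 became 19 without LBD11-OE-14 replicate 2, 24 without LBD11-OE-1 replicate 3 and 71 without WT replicate 3. With the library set as a term in the fit, LBD11-OE-2 is in effect compared with WT replicate 3 alone, so only medians are given. The genes which that fit chose as higher and as lower in LBD11-OE-2 had medians between the lines of -0.0056 and -0.022. In that fit the medians thus lay close to 0 and had the same sign.

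The same sets can be read library by library. The median level of the 2268 genes relative to the WT mean was 0.61, 0.69 and 0.69 in LBD11-OE-14 and 0.54, 0.54 and 0.51 in LBD11-OE-1, on the log2 scale. That of the 2027 was -0.48, -0.49 and -0.51 in LBD11-OE-14 and -0.44, -0.45 and -0.40 in LBD11-OE-1. The libraries of the lines did not overlap in either set, and LBD11-OE-14 was the further from WT in both. LBD11-OE-2 and WT, apart from WT replicate 3, differ in library set, so the choice of these genes is confounded with it. For genes chosen with the library set as a term, the median differences between the lines were -0.0056 and -0.022. Of the 820 genes higher in the LBD4 lines than in WT (3.12% of all), 9 were higher in LBD11-OE-14 than in LBD11-OE-1. That is 1.10%, against 1.36% of all genes, and 5 were lower (0.61%, against 0.335%). Of the 642 genes lower in the LBD4 lines (2.44% of all), 24 were higher (3.74%, against 1.36%) and 2 were lower (0.312%, against 0.335%). The medians of the 820 and the 642 between the LBD11 lines were 0.014 and -0.0052.

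**Figure D3:**
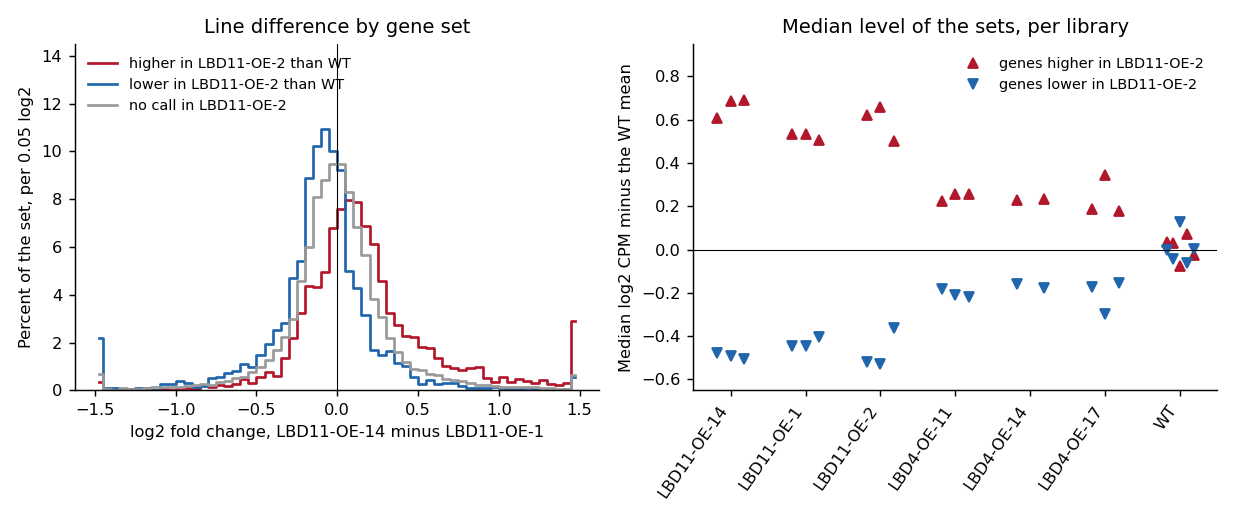
Left, spread of the log2 difference of LBD11-OE-14 from LBD11-OE-1 for genes higher, lower or not called in LBD11-OE-2 against WT, with differences beyond 1.5 pooled in the end bins. Right, median log2 level of the 2 called sets relative to the WT mean, 1 point per library; LBD11-OE-14 lies at 0.61 to 0.69 and LBD11-OE-1 at 0.51 to 0.54 for the higher set.

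Lists of wood-forming genes were matched by identifier. The identifiers were written down from general knowledge of the poplar literature, no annotation was there to check which gene each one is, and their members are therefore described as lists. The lists were chosen with earlier results of these data known. Their counts beside the shares over all genes therefore describe the lists and are no independent support. Of 73 identifiers in 7 lists, 71 were tested. Of these, 11 were higher in LBD11-OE-14 than in LBD11-OE-1, beside 1.36% of all tested genes, and 0 were lower, beside 0.335%. At an unadjusted p below 0.05, 21 of the 71 were higher, beside 7.43% of all genes, and 0 were lower, beside 4.84%. The 11 were among the 50 tested members of the 4 secondary wall lists. The other 3 lists held 0 called of 21 tested, a number too small to be told from the share of 1.69% over all genes. No test compared the lists with each other or with the other genes. The shares over all genes are not matched for level. Over both lines, the median was 36.0 CPM for called genes and 13.6 CPM for all tested genes.

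Cellulose synthases extrude cellulose into the wall, and plants use separate sets for secondary and primary walls. On the secondary wall list, 2 of 5 members rose, beside 1.36% of all genes, and the list's median log2 difference was 0.56, against -0.0037 over all genes. The member with the largest difference had 1295, 1395 and 1273 CPM in LBD11-OE-14, against 885, 822 and 805 CPM in LBD11-OE-1 (log2 difference 0.66 ± 0.09 SE, edgeR adjusted p = 0.000167). The other that rose had 2639, 2978 and 2769 CPM in LBD11-OE-14, against 1928, 1875 and 1804 CPM in LBD11-OE-1 (0.58 ± 0.10, adjusted p = 0.00206). WT averaged 715 and 1587 CPM for these members, below both lines. A further pair of members had libraries that did not overlap, as did 11.6% of all genes with LBD11-OE-14 higher, but missed the threshold, at 0.56 ± 0.17 (adjusted p = 0.103) and 0.40 ± 0.19 (0.415), and the last averaged 284 CPM in both lines. With the spread estimated from the 6 libraries alone, 4 of the 5 passed. Against WT, 4 of the 5 were higher in LBD11-OE-14, beside 14% of all genes, and 2 in LBD11-OE-1, beside 10.8%.

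On the primary wall list, 0 of 8 members differed between the lines by edgeR's adjusted p, and 0 at an unadjusted p below 0.05. With 1.69% of all genes called, 0 of 8 says little about the list. The log2 differences ran between -0.09 and 0.15 with a median of -0.0078. Against WT, all 8 were higher in LBD11-OE-14, beside 14% of all genes, and all 8 in LBD11-OE-1, beside 10.8%, with medians of 0.44 and 0.47.

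On the list for lignin, the phenolic polymer of the secondary wall, 5 of 22 members rose, beside 1.36% of all genes, and 0 fell, beside 0.335%. All 22 log2 differences were above 0, as were 49.3% of those of all genes, at 0.0074 to 0.72 with a median of 0.17, against -0.0037 over all genes. The largest was a member with 2784, 3387 and 2916 CPM in LBD11-OE-14, against 1716, 2020 and 1785 CPM in LBD11-OE-1 (0.72 ± 0.12, edgeR adjusted p = 0.00143); WT averaged 1432 CPM. Another had 131, 139 and 135 CPM in LBD11-OE-14, against 91.5, 87.7 and 80.0 CPM in LBD11-OE-1 (0.65 ± 0.10, adjusted p = 0.000567), while WT averaged 118 CPM, between the lines. The other 3 rose by 0.46 to 0.64, and the smallest of these calls was lost without any 1 of the 6 libraries other than LBD11-OE-14 replicate 1. Against WT, 12 of the 22 were higher in LBD11-OE-14, beside 14% of all genes. In LBD11-OE-1, 5 were higher, beside 10.8%, and 1 was lower, beside 10.7%. The members' libraries share depth and RNA, so the 22 are not independent replicates.

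On the list for xylan, the main hemicellulose of hardwood, 2 of 7 members rose, beside 1.36% of all genes, by 0.46 ± 0.12 (edgeR adjusted p = 0.0402) and 0.38 ± 0.08 (0.0143). The list's median was 0.18, against -0.0037 over all genes. These calls were weak: 0 remained without LBD11-OE-14 replicate 2, LBD11-OE-14 replicate 3 or LBD11-OE-1 replicate 3. Without LBD11-OE-1 replicate 1 or replicate 2, 1 was called. Against WT, 4 of the 7 were higher in LBD11-OE-14, beside 14% of all genes, and 0 were lower, beside 12.7%. In LBD11-OE-1, 2 were higher, beside 10.8%, and 0 were lower, beside 10.7%.

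On the list of NAC and MYB factors that control the secondary wall, 2 of 16 were higher in LBD11-OE-14 than in LBD11-OE-1. This stands beside 1.36% of all genes, and 0 were lower, beside 0.335%. The first had 48.7, 61.3 and 48.0 CPM in LBD11-OE-14, against 33.6, 28.9 and 26.8 CPM in LBD11-OE-1 (0.82 ± 0.13, edgeR adjusted p = 0.000876). The second had 69.4, 90.7 and 74.0 CPM in LBD11-OE-14, against 52.5, 47.5 and 42.2 CPM in LBD11-OE-1 (0.72 ± 0.13, adjusted p = 0.00227). WT averaged 41.3 CPM for the first and 69.2 CPM for the second, below LBD11-OE-14 and above LBD11-OE-1. The list's 16 differences ran between -0.75 and 0.82, with a median of 0.17, against -0.0037 over all genes, and 11 were above 0. Leaving out 1 library moved that median between 0.076 and 0.34. Against WT, 2 of the 16 were higher in LBD11-OE-14, beside 14% of all genes, and 1 was lower, beside 12.7%. In LBD11-OE-1, 2 were higher, beside 10.8%, and 4 were lower, beside 10.7%. The list's median against WT was 0.066 in LBD11-OE-14 and -0.14 in LBD11-OE-1.

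The list of cambium and vascular regulators and that of the circadian clock held no called gene, with 0 of 11 and 0 of 2 tested. With 1.69% of all genes called, these counts say little about either list. The 11 tested cambium members had log2 differences between -0.25 and 0.10 with a median of -0.12, and 0 passed an unadjusted p of 0.05 by edgeR's test. Both clock members were nearly level between the lines, at 75.1 ± 4.5 CPM in LBD11-OE-14 and 74.3 ± 1.8 CPM in LBD11-OE-1 for one, and 92.6 ± 10.3 CPM in LBD11-OE-14 and 92.3 ± 5.9 CPM in LBD11-OE-1 for the other (SD, n = 3 each). Against WT both were lower in each line, beside 12.7% of all genes in LBD11-OE-14 and 10.7% in LBD11-OE-1, with a list median of -0.66 in LBD11-OE-14 and -0.67 in LBD11-OE-1.

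**Figure D4:**
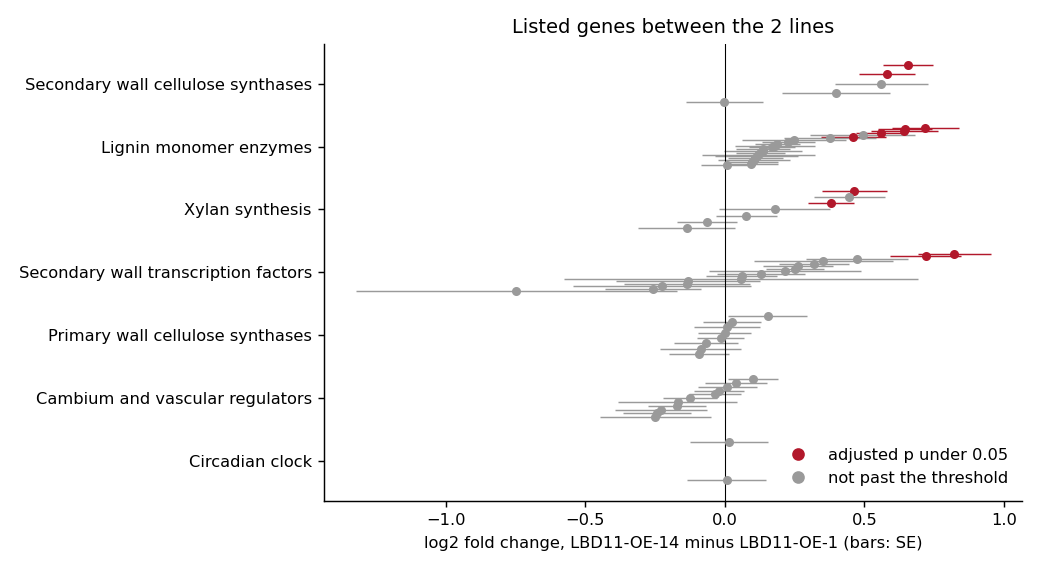
Log2 difference of LBD11-OE-14 from LBD11-OE-1 (x axis) for each tested member of the 7 lists, with bars for the SE and red points for members that passed the test. The 11 red points stand on the lists for secondary wall cellulose, lignin, xylan and secondary wall regulators, all above 0, while the primary wall members lie between -0.09 and 0.15.

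Genes that differed were spread over the genome, and a few stood together. Of the 357 higher genes 324 had no higher neighbour in the files' gene order, and of the 88 lower genes 80 had no lower neighbour. The remaining higher genes made 15 pairs and 1 group of 3, and the remaining lower genes 1 pair and 2 groups of 3. The genes described by position here were chosen after their values were seen. On chromosome 17, 3 adjacent models on the minus strand (8610146 to 8612023, 8616806 to 8623614 and 8636821 to 8638647) were all lower in LBD11-OE-14, with edgeR adjusted p of 0.0121, 0.00278 and 0.000805. Their summed level was 0.497, 0.258 and 0.488 CPM in LBD11-OE-14, against 3.68, 4.01 and 2.21 CPM in LBD11-OE-1. LBD11-OE-2 had 2.60 to 2.90 CPM, the LBD4 lines 2.67 to 3.99 CPM and WT 1.35 to 3.87 CPM (median 3.65). LBD11-OE-14 was thus the sole group apart, below every other library. The counts behind it were small, 16, 5 and 18 reads in the LBD11-OE-14 libraries together, against 86, 76 and 146 in LBD11-OE-1. The call of the first gene was lost without LBD11-OE-14 replicate 2, LBD11-OE-14 replicate 3 or LBD11-OE-1 replicate 1, and with the 6 libraries alone.

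On chromosome 10, 3 adjacent models on the plus strand (19606049 to 19608014, 19610029 to 19612064 and 19615512 to 19617231) were also lower in LBD11-OE-14, with edgeR adjusted p of 0.00184, 0.00457 and 0.00516. Their summed level was 1.46, 0.774 and 0.456 CPM in LBD11-OE-14, against 4.64, 9.87 and 9.5 CPM in LBD11-OE-1, 3.58 to 10.2 CPM in LBD11-OE-2, 20.2 to 40.7 CPM in the LBD4 lines and 28.4 to 56.7 CPM in WT. Here all LBD11 libraries lay below all others. The calls at 19610029 and 19615512 were lost without LBD11-OE-14 replicate 2, and those at 19606049 and 19610029 with limma voom. On chromosome 14, 3 adjacent models on the minus strand (1179384 to 1181107, 1186766 to 1188522 and 1194923 to 1196750) were higher in LBD11-OE-14. They averaged 220, 756 and 208 CPM in LBD11-OE-14, against 146, 462 and 152 CPM in LBD11-OE-1 and 79.3, 326 and 115 CPM in WT, with edgeR adjusted p of 0.0290, 0.000616 and 0.0110. The call of the first was lost without any 1 of the 6 libraries, and that of the third without LBD11-OE-14 replicate 2 or LBD11-OE-1 replicate 1. Neighbours on 1 strand can be near-identical copies that share reads, and this was not tested.

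The gene with the largest rise among all 357 showed another pattern, in which LBD11-OE-1 and LBD11-OE-2 stood apart from every other group. It lies on chromosome 17, 13558221 to 13558992, plus strand, and had 65, 51 and 56 reads in LBD11-OE-14, against 3, 0 and 1 in LBD11-OE-1. LBD11-OE-2 had 0, 0 and 3 reads, WT had 33, 82, 83, 49 and 64, and the 8 LBD4 libraries had 360 in all. The ratio of summed reads per library size between LBD11-OE-14 and LBD11-OE-1 was 42.5 (exact 95% interval 16.3 to 158, counting error only; edgeR adjusted p of the line difference = 5.07e-05). LBD11-OE-14 differed from WT by -0.04 ± 0.36 (adjusted p = 0.952). It was the 1 gene with a mean under 0.1 CPM in LBD11-OE-1 and at least 1 CPM in each LBD11-OE-14 library, and 0 genes had the opposite pattern. The neighbouring tested genes differed by -0.04 and -0.23 between the lines, both with an edgeR adjusted p of 0.963. The one before it ends at 13555718 and averaged 4.92 CPM in LBD11-OE-14 and 5.06 CPM in LBD11-OE-1. The one after it starts at 13619274 and averaged 0.0641 CPM in LBD11-OE-14 and 0.077 CPM in LBD11-OE-1, too low to show whether it differed.

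**Figure D5:**
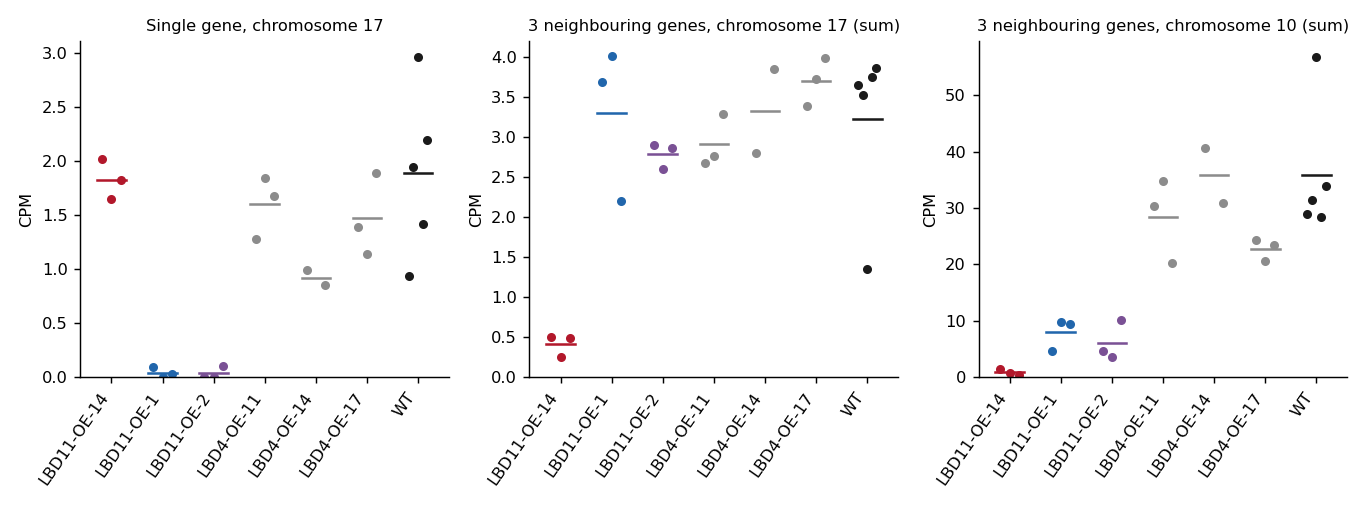
Level in every library, in CPM on linear axes, of the single gene on chromosome 17 (left) and summed over the 3 neighbouring genes on chromosome 17 (middle) and on chromosome 10 (right); points are libraries and bars are group means. In the left panel LBD11-OE-1 and LBD11-OE-2 lie near 0 while LBD11-OE-14 lies among the WT and LBD4 libraries, in the middle panel LBD11-OE-14 alone lies below 0.5 CPM, and in the right panel all LBD11 libraries lie at or below 10.2 CPM.

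The share of tested genes called ran between 1.06% on chromosome 4 and 2.82% on chromosome 17, and the chromosome medians lay between -0.022 and 0.012. Over 25589 windows of 30 consecutive genes, the highest median was 0.43, on chromosome 7 between 6700784 and 7164155, where 26 of 30 genes were above 0 and 0 were called. The median there was 1.77 against WT in LBD11-OE-14, 1.33 in LBD11-OE-1 and 1.67 in LBD11-OE-2. The windows of at least 0.4 in size made a single stretch, on chromosome 7 between 6481455 and 7182073. The lowest median was -0.21, on chromosome 16 between 710495 and 914126, again with 0 called. For scale, the 1st and 99th percentiles of the window medians were -0.13 and 0.14. The regions found depended on the window length. With windows of 15 genes, the highest median was 0.52, again on chromosome 7, and the lowest was -0.55, on chromosome 14 between 14292855 and 15070771, where 2 of 15 genes were above 0 and 0 were called. The median there was -1.31 against WT in LBD11-OE-14, -0.77 in LBD11-OE-1 and -0.88 in LBD11-OE-2. At 15 genes, 6 stretches on chromosomes 7, 8, 13 and 14 reached 0.4 in size, each with 0 called genes. With windows of 60 genes the medians ran between -0.13 and 0.25, and 0 stretches reached 0.4.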

How the data were processed

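Poly(A) RNA of 22 stem internode libraries was sequenced in paired-end mode on an Illumina HiSeq, per the labels' protocols. The deposited values are raw read counts per gene model from HTSeq, per the labels; the submitters' processing notes also name Trimmomatic, HISAT2, Cufflinks and MultiQC. Versions, genome build and strand setting are not given in the sources used here. Library totals, the sums of the counts over gene models, limit the precision of low genes, and intervals cover counting error only.

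Groups came from the library titles. Genes were kept by filterByExpr (minimum count 10, minimum total count 15), and 7 group means over all 22 libraries were fitted with edgeR 4.0.16 in R 4.3.3 (TMM, robust quasi-likelihood test). P-values were adjusted by the Benjamini-Hochberg method over the 26271 genes tested, with a threshold of 0.05. Standard errors of log2 differences were taken from the F statistic. CPM used TMM-scaled library sizes and are not per length, so levels of different genes are not compared. Replicates of either line differed by more than sampling noise (chi-square over its degrees of freedom 7.90 to 17.0), so none was counted as a repeat.

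Named genes were those past the threshold, with at least 5 mean CPM in the higher line and no overlap between the lines' libraries, ranked by fold change. As no name table came with the files, 2 rises and 2 falls were named. The lists, rules and alternatives were chosen with earlier results of these data known. Lists defined by product name (photosynthesis, phloem, epidermis) were not tested. The alternatives were other scalings and filters, DESeq2 1.42.0, limma 3.58.1 (voom), fewer libraries, a replicate block and leaving out each library, with library sets added after seeing the data. The main edgeR fit was run on simulated counts for the comparison of LBD11-OE-14 with LBD11-OE-1 only. The alternatives and the comparisons with WT were not simulated.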

Additional observations from a re-analysis of the deposited data

Results flagged for a closer look

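Among 19 sets of 5 WT values examined for the genes and groups described above, 5 had 1 library far from the other 4. For a single set, chance gives about 1 in 20. The 19 sets share the same 5 libraries and are not independent, so that rate gives no expected number for them. In all 5 it was WT replicate 3, the WT library in the smaller library set: the highest for Potri.015G087500 at 98.3 CPM, the highest for Potri.004G049000 at 36.5 CPM, the highest for the 3 genes on chromosome 10 together at 56.7 CPM, the highest for the listed secondary wall regulator with the largest line difference at 51.0 CPM, and the lowest for the 3 genes on chromosome 17 together at 1.35 CPM. The difference between LBD11-OE-14 and LBD11-OE-1 uses WT only through the filter, scaling and shared estimate of spread.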

How the results depend on the processing

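The count of genes lower in LBD11-OE-14 was 178 with DESeq2 (84 among genes lower in LBD11-OE-2), against 88 in the main fit. It was 249 in the larger library set and 151 with the library set as a term. That of genes higher was 592 in the larger set and 532 with DESeq2, against 357. With the 6 libraries of the lines alone, 488 genes were higher and 115 lower. Of these 603 genes, 61.2% were also called in the main fit. With the 9 LBD11 libraries, 535 were higher and 111 lower. Without both WT replicate 3 and LBD4-OE-11 replicate 1 the counts were 616 higher and 209 lower, with 299 and 97 among the sets chosen in LBD11-OE-2; without WT replicate 3 alone, 71 of the lower set were lower. Leaving out single libraries of either line gave 123 to 332 higher and 34 to 70 lower genes. Among the sets chosen in LBD11-OE-2, leaving out any 1 library of the LBD11 lines or WT gave 79 to 262 and 19 to 71. For LBD11-OE-1 against WT, leaving out 1 library of LBD11-OE-1 or WT gave 3222 to 5671 genes. Shared estimates of spread, which fewer libraries change, enter all of these counts; the cause was not tested otherwise.

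The replicate numbers were not treated as pairs, since same-numbered libraries of the lines correlated at 0.145, 0.0957 and 0.0447, not all above 0.1, although each library correlated best with its own number. With the replicate block, 273 genes were higher and 63 lower, with 5883 and 4482 against WT and 123 and 33 among the sets chosen in LBD11-OE-2. On the secondary wall cellulose list 2 to 4 members were called and on the xylan list 0 to 3. No gene called in the comparison and described above changed direction under the alternatives run, but the median of the genes higher in LBD11-OE-2 did with the library set as a term (-0.0056, against 0.11). Low counts limit the genes on chromosomes 10 and 17.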
